A study of Mus musculus with 38 samples.

Results

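BC048671 and Gm43891 are neighbouring genes on mouse chromosome 6 that were read in 9 Trim28-KO libraries and in no control library. They are 2 of the 55298 genes in the deposited gene count table, and they were described together with the 116 transposable element (TE) copies, of 3494634 copies in the deposited TE table, that lie in or reach into chr6:90250000-90350000 (GRCm38). Of these 116 copies, 25 had a count in any of the 32 bulk RNA-seq libraries. The genes were chosen by their higher counts in Trim28-KO than in lacZ neural progenitor cells (NPCs), so the NPC values below are a description and carry no test. The genome window was fixed by position around them.

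The study deleted Trim28 in mouse brain cells in several ways and sequenced poly-A RNA. NPCs came from embryonic forebrain of Rosa26-Cas9 knock-in mice and received a lentivirus with a guide against exon 3, 4 or 13 of Trim28 (2 libraries a guide, 6 in all) or against lacZ (2 libraries), and RFP+ cells were sorted after 10 days. In adult forebrain, RFP+ nuclei were sorted 2 months after injection of AAV guide vectors into Cas9-GFP mice (4 Trim28-KO libraries, 1 control) or Stop-Cas9-GFP mice, in which a Synapsin-driven Cre starts Cas9 in neurons (4 and 1). Nuclei were also sorted from Trim28-flox mice injected with AAV vectors, where Cre again came from the Synapsin promoter (4 libraries labelled KO, 4 labelled control). In the Emx experiment, cortex was taken at 3 months from Emx1-Cre (+/-); Trim28-fl (+/+) animals (KO, 3) and from Emx1-Cre (+/-); Trim28-fl (+/-) animals (control, 3), so by the labels the controls carried Cre and lacked 1 Trim28 allele too, although the paper in another place calls the controls Cre-negative. Emx1-Cre acts in the precursors of cortical excitatory neurons and of many cortical glia, not in those of interneurons or microglia. Single-nuclei libraries came from the cortex of 2 KO and 2 control Emx animals, which bear the numbers of 4 of the bulk Emx libraries and are not further replicates. The labels do not say whether libraries of a group came from separate cultures or animals, apart from the animal numbers in Emx, so p-values measure the spread between these libraries.

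Trim28 is a corepressor that zinc finger proteins bring to endogenous retroviruses, where it recruits histone methyltransferases that deposit H3K9me3. Intracisternal A particles (IAPs) are among the retroviral families of the mouse that it silences. The long terminal repeats (LTRs) at both ends of such an element hold its promoter and its polyadenylation signal, and an LTR can start transcripts that run into the DNA beside it.

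Gm43891 (ENSMUSG00000108119.1) spans chr6:90296222-90299333 on the + strand as a single block of 3112 bases, and the annotation gives it the class TEC, used for predicted transcripts without experimental evidence. BC048671 (ENSMUSG00000049694.13) is annotated as protein-coding at chr6:90301219-90305449 on the + strand, with 1478 exonic bases, and it begins 1886 bases past the end of Gm43891. Directly before both lies an IAP1-MM element of 3947 bases on the same strand (chr6:90292370-90296316), made of a 5′ LTR, 2 annotated internal parts and a 3′ LTR. The same 6 bases, ATGGTG, stand just before the 5′ LTR and just after the 3′ LTR. The first 95 bases of Gm43891 are the last 95 bases of the 3′ LTR. BC048671 starts inside another repeat, the copy MTC-int_dup1202 (487 bases on the - strand), which shares 89 bases with it.

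The LTRs are printed because the annotated start of Gm43891 falls in one of them, and the promoter of BC048671 because its letters are those of the MTC-int copy. All are the + strand of GRCm38.p6, the LTRs read from the genome and the promoter from RefSeq's table. The 5′ LTR is chr6:90292370-90292652, the 3′ LTR is chr6:90296025-90296316 with the part shared with Gm43891 in capitals, and the promoter is chr6:90300969-90301268 with the first 50 bases of BC048671 in capitals.
5′ LTR (IAP1-MM): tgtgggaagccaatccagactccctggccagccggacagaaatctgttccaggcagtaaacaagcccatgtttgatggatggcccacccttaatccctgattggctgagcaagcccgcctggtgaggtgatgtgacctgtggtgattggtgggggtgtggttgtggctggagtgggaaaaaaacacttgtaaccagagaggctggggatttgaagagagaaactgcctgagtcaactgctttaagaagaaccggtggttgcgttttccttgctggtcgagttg
3′ LTR (IAP1-MM): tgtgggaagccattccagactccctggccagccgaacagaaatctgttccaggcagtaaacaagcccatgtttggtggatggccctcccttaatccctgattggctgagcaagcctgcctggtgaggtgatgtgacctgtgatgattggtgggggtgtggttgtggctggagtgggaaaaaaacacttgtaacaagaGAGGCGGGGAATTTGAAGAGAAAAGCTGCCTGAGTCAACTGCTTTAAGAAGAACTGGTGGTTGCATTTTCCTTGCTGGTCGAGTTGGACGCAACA
BC048671 promoter: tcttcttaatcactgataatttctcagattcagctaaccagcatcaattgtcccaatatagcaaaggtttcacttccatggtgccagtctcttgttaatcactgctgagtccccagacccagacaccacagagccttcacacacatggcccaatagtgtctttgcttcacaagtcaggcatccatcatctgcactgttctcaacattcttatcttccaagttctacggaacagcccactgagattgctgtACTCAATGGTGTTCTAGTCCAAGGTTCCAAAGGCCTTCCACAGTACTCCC
Aligned end to end, the LTRs share 270 bases and differ at 13, which is an identity of 95.4% outside 9 gap bases. None of these 3 sequences holds TATAAA or AATAAA on either strand, whereas 13.6% and 19.6% of the 32851 promoter windows of 300 bases in the table do. RefSeq's promoter table held BC048671 and not Gm43891.

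The bulk libraries held 8790350 to 25345100 gene counts, so a floor of 3 counts, the limit that a count of 0 allows, corresponds to 0.109 to 0.338 counts-per-million (CPM). Such floors and all intervals below cover counting error only. Trim28 itself averaged 51.3 ± 14.5 CPM (SD, n = 6) in NPC KO and 180 ± 33.4 CPM (n = 2) in lacZ libraries, a log2 fold change of -1.82 ± 0.25 (SE; adjusted p = 0.031, edgeR's quasi-likelihood test with Benjamini-Hochberg adjustment over all genes). In Emx cortex it averaged 7.82 ± 1.52 CPM in KO and 20.4 ± 1.28 CPM in control (n = 3 each; log2 fold change -1.39 ± 0.15, adjusted p = 0.000378). By the same test it did not pass in Cas9-GFP nuclei (-0.51 ± 0.15, adjusted p = 0.415) or Stop-Cas9-GFP nuclei (-0.00 ± 0.24, adjusted p = 1.00). For both, the paper reports efficient editing and loss of Trim28 protein in most RFP+ neurons, which these RNA values do not measure. In the Trim28-flox nuclei Trim28 RNA went against the labels: the libraries labelled KO held 130 to 146 CPM and those labelled control 25.6 to 31.6 CPM. The labelled cell types had their markers: all 6 progenitor genes (Nes, Sox2, Pax6, Vim, Mki67, Top2a) stood at 1 CPM or more in every NPC library, and all 5 neuronal genes (Rbfox3, Snap25, Syt1, Syn1, Map2) in every adult library.

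Gm43891 was read in all 6 NPC KO libraries and in neither lacZ library. The libraries with the exon 3 guide held 208 (library g3_845) and 216 (g3_870) counts, those with the exon 4 guide 49 (g4_848) and 155 (g4_873), and those with the exon 13 guide 90 (g13_851) and 68 (g13_876). In CPM these are 11.1 and 11.5, 3.19 and 8.90, and 5.17 and 6.53. The mean was 7.73 ± 3.33 CPM (SD, n = 6), at least 49.8-fold above the mean floor of the lacZ libraries, and every KO library stood above that floor of 0.155 CPM.

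BC048671 was likewise read in all 6 NPC KO libraries, at 146 (g3_845) and 59 (g3_870) counts with the exon 3 guide, 19 (g4_848) and 50 (g4_873) with the exon 4 guide, and 39 (g13_851) and 26 (g13_876) with the exon 13 guide. Both lacZ libraries were at 0. The levels were 7.79 and 3.14 CPM, 1.24 and 2.87 CPM, and 2.24 and 2.50 CPM, with a mean of 3.30 ± 2.30 (SD, n = 6), at least 21.3-fold above the lacZ floor. Library g3_845 held more counts of BC048671 than any other library, while for Gm43891 it was level with library g3_870. Over all genes, 29 of the 16469 tested were called higher in NPC KO (0.176%; 0.194% in either direction; a call needed an adjusted p below 0.05 together with a log2 fold change beyond 0.5 either way), a count given as background only, since this contrast chose both genes.

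In Emx cortex, a contrast that did not choose them although earlier results of it were known, Gm43891 was read at 151 (animal 60), 204 (73) and 141 (76) counts in KO and at 0 in all 3 controls. The levels of 8.57, 10.5 and 11.2 CPM (10.1 ± 1.35, n = 3) all stood above the control floors of 0.109 to 0.163 CPM, and the mean was at least 74.8-fold above their mean. Gm43891 was called higher by edgeR (adjusted p = 1.12e-06), as were 0.86% of all genes tested (140 of 16271; 1.33% in either direction). With all controls at 0, it could pass the filter on low counts only through the KO libraries, so the call adds little to the counts themselves. Its levels in Emx KO lay within the range of the NPC KO libraries, so the 2 settings did not separate by Gm43891.

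BC048671 was much lower in the same Emx KO libraries, at 7 (60), 6 (73) and 3 (76) counts, and at 0 in the 3 controls. This is 0.397, 0.310 and 0.237 CPM (0.315 ± 0.0801, n = 3), all above the highest control floor of 0.163 CPM and all below the lowest NPC KO library. Animal 76, at 3 counts, only equals its own floor of 0.237 CPM. Its scaling factor (TMM) was 0.7545, against 1.03 to 1.09 in the other Emx libraries, which raises its CPM. BC048671 did not pass edgeR's filter on low counts and so was not tested with the other genes. Without that filter its adjusted p was 0.00132 by edgeR, and by DESeq2 it was 0.0547. Of the 2 genes, 1 was thus called in Emx cortex and 1 was not tested.

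Neither gene had a single count in the 18 libraries of sorted adult nuclei. This covers the 4 KO and 1 control libraries of Cas9-GFP mice, the 4 and 1 of Stop-Cas9-GFP mice, and the 4 libraries labelled KO and 4 labelled control of Trim28-flox mice. In a single library labelled KO, a count of 0 there allows up to 0.142 to 0.317 CPM. The mean of Gm43891 in NPC or Emx KO lies far above that. The mean of BC048671 in Emx KO (0.315 CPM) does not lie above all of it. It does lie above the limits of every Trim28-flox library, 0.142 to 0.167 CPM under the KO label and 0.127 to 0.172 under the control label. Neither gene could be tested in these experiments, where edgeR called 0% (Cas9-GFP), 0% (Stop-Cas9-GFP) and 0.0117% (Trim28-flox) of genes higher in the libraries labelled KO, and 0%, 0% and 0.0409% in either direction. At an unadjusted p under 0.05 these experiments had 1560, 459 and 810 genes, and DESeq2 called 25, 1 and 37. Sorted nuclei and Emx cortex also differed in region. The 5 striatal projection neuron markers (Ppp1r1b, Drd1, Drd2, Penk, Adora2a) summed to 2062 to 4226 CPM in sorted nuclei and 47.3 to 64.2 CPM in Emx cortex. The paper injected Cas9 mice in the striatum. Region, the cell types sampled, nuclear RNA, the extent of Trim28 loss and the time of deletion cannot be told apart here. The plot of both genes by library shows the 9 KO libraries with counts beside the 23 at 0.

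**Figure D1:**
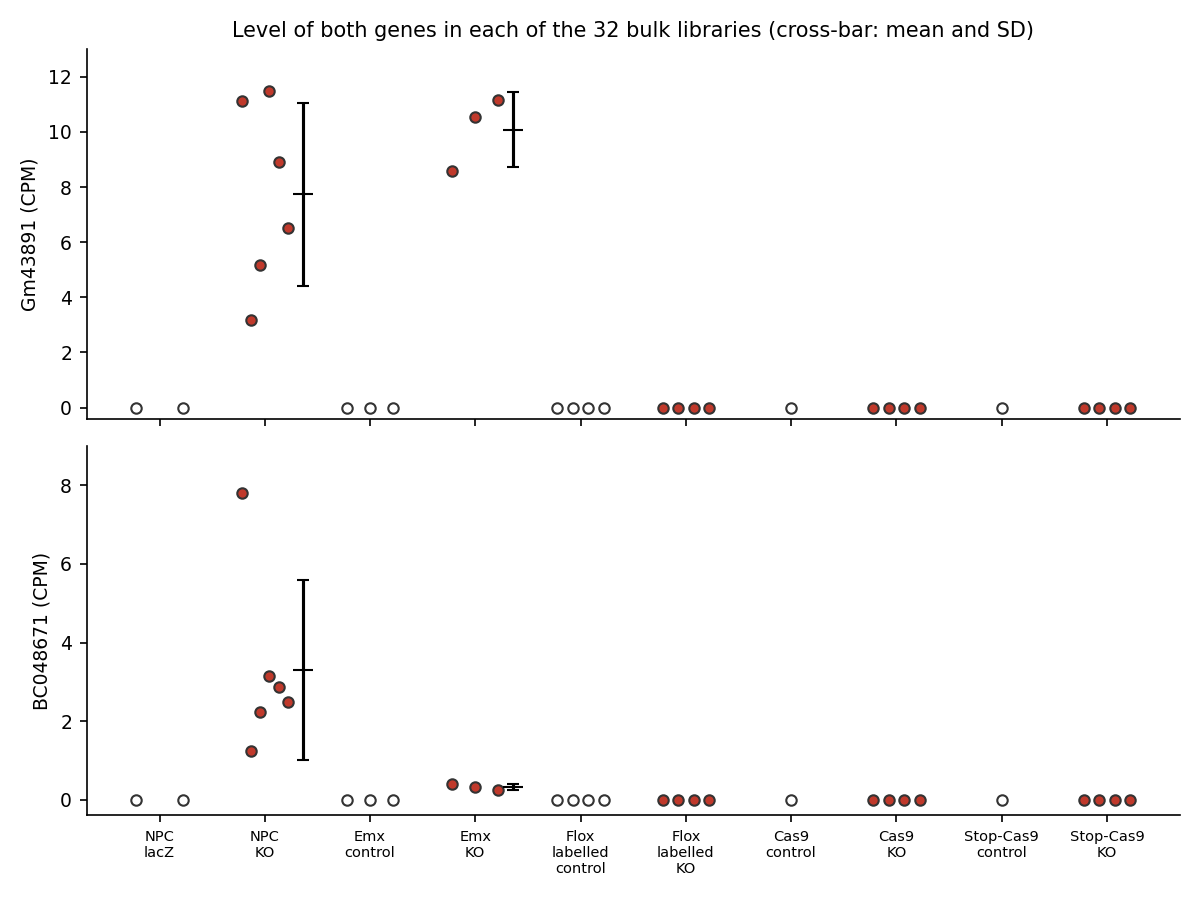
Level of Gm43891 (top) and BC048671 (bottom) in counts-per-million (CPM, y axis) in each bulk library, by experiment and group on the x axis; each point is a library, filled for libraries labelled KO and open for controls, and the bar gives mean and SD where counts were found. Gm43891 stands at 3.19 to 11.5 CPM in NPC KO and 8.57 to 11.2 CPM in Emx KO, BC048671 at 1.24 to 7.79 and 0.237 to 0.397 CPM, and all other libraries are at 0.

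Within the NPC KO libraries, the guides differed in mean but the differences did not pass a test over all genes, which the choice of the genes did not use. Gm43891 averaged 11.3 CPM with the exon 3 guide, 6.05 with exon 4 and 5.81 with exon 13 (n = 2 each; adjusted p = 1.00, edgeR's quasi-likelihood F test). BC048671 averaged 5.45, 2.06 and 2.35 CPM (adjusted p = 1.00). No gene of 16204 was called between the guides (0%), 67 of them had an unadjusted p under 0.05, and DESeq2 was not run on this contrast.

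The libraries also fall into a lower and a higher number series in their labels (g3_845, g4_848, g13_851 and g3_870, g4_873, g13_876). Gm43891 averaged 6.44 CPM in the lower and 8.99 in the higher series (n = 3 each), and BC048671 3.73 and 2.84 CPM. With the guide in the model, neither difference passed (adjusted p = 0.229 and 0.933, edgeR), whereas 10.4% of genes were called between the series. The guide test above left the series out. With the series as a block, its unadjusted p was 0.0498 for Gm43891 and 0.0949 for BC048671 (adjusted p = 0.823 for each, edgeR's quasi-likelihood F test). At 2 libraries a guide, neither fit can exclude a difference between guides. Trim28 stood at 36.8 to 42.2 CPM in libraries g3_845, g3_870 and g4_848, at 53.3 in g4_873, and at 62.3 and 73.5 in the exon 13 libraries. Its part in the levels of both genes was not tested.

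Per kilobase of exon, both genes had similar levels in NPC KO and very different levels in Emx KO. BC048671 stood at 5.27, 2.12, 0.837, 1.94, 1.51 and 1.69 CPM per kb in libraries g3_845, g3_870, g4_848, g4_873, g13_851 and g13_876, and Gm43891 at 3.57, 3.69, 1.03, 2.86, 1.66 and 2.10. The ratio of BC048671 to Gm43891 was thus 1.48 in library g3_845 and 0.575 to 0.912 in the other 5 libraries (0.878 ± 0.317, n = 6). In Emx KO it was 0.0976 (60), 0.0619 (73) and 0.0448 (76), 0.0681 ± 0.0269 (n = 3), with no overlap between the settings. Cell type, Cas9 or Cre, age and preparation all differ between NPCs and cortex and cannot be told apart here. The plot of one gene against the other shows the Emx animals along its lower edge.

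**Figure D2:**
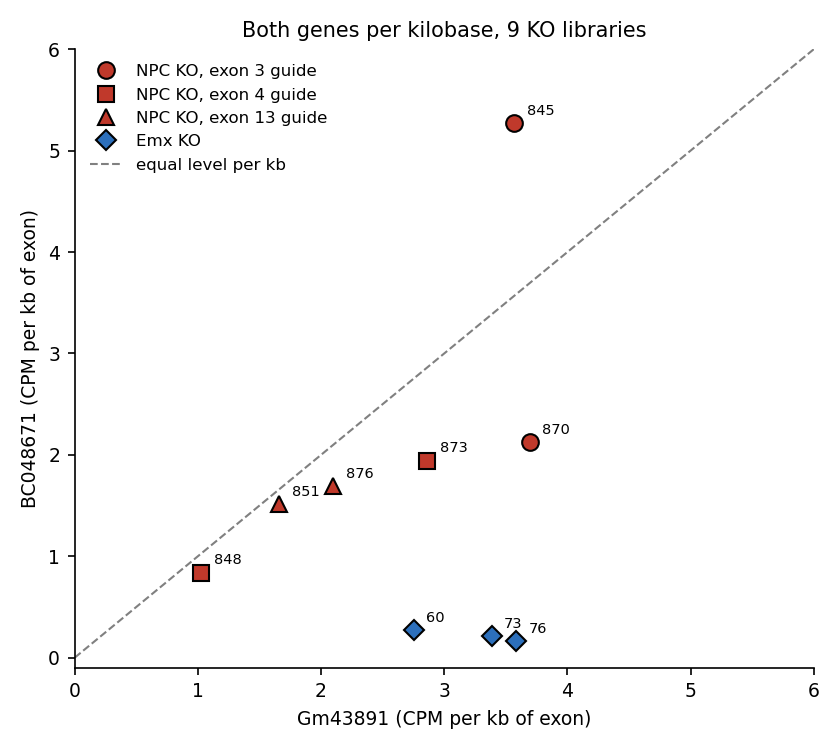
BC048671 (y axis) against Gm43891 (x axis), both in CPM per kilobase of exon, in the 9 KO libraries with counts; symbols give the guide or experiment, numbers are the labels' library numbers, and the dashed line marks equal levels. Library g3_845 lies above the line at a ratio of 1.48, the other 5 NPC libraries below it at 0.575 to 0.912, and the Emx animals lie at ratios of 0.0448 to 0.0976.

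The TE copies of the window show where the reads lay between and beyond the genes. The window held 2061 counts in the 9 NPC and Emx KO libraries and 5 in the other 23 libraries. The 10 copies with the most counts are named here, and they hold 96.9% of all counts in the window. The other 15 copies with counts held at most 17 each.

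The IAP was read near its 3′ end. Its 3′ LTR (IAP1-MM_LTR_dup137) held 34, 41, 10, 21, 12 and 22 counts in libraries g3_845, g3_870, g4_848, g4_873, g13_851 and g13_876, and 32, 43 and 31 in Emx KO 60, 73 and 76. The internal part before it (IAP1-MM_I-int_dup144, 2990 bases) held 12 to 38 counts in these 9 libraries, and the shorter internal part 1 count in all. The 5′ LTR held none in any library. Per kilobase, the 3′ LTR stood at 4.94 CPM in NPC KO and 7.41 in Emx KO, and the internal part at 0.434 and 0.672. Only reads with a single match were counted in this table, so the parts of an IAP that other copies repeat are undercounted by construction.

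Past the LTR, each of the 4 repeat copies up to the end of Gm43891 held counts. The LINE copy L1_Mur2_dup7199, which starts at the base after the LTR and lies inside Gm43891, had the most counts of the window: 132, 143, 28, 103, 55 and 39 in the NPC KO libraries in the order above, and 83, 121 and 76 in Emx KO. Because it overlaps Gm43891, the same reads can stand in both tables, and it is no separate evidence. HAL1_dup1235, another LINE fragment inside Gm43891, held 4 to 17 counts in NPC KO and 6 to 14 in Emx KO, and the LTR fragment LTR84a_dup53 held 0 to 8 and 3 to 8.

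Counts did not stop at the annotated end of Gm43891. The LINE copies beyond or across that end, Lx7_dup13541, L1MC4_dup1957 and Lx7_dup13542, held 99, 138 and 261 counts in all. Lx7_dup13542, which lies wholly past Gm43891, held 45, 42, 14, 19, 23 and 14 counts in the NPC KO libraries and 35, 44 and 24 in Emx KO. An Emx control held 1 count on it, the only count of the window in a lacZ or Emx control library. In both settings the stretch between the genes took a like part of the window's TE counts, 20.5 to 29.8% in NPC KO and 19.7 to 27.6% in Emx KO. Copies were placed by their midpoint, so this part includes MTC-int_dup1202, in which BC048671 starts. That copy held 78 of the stretch's 329 counts in NPC KO and 5 of its 173 in Emx KO.

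NPC and Emx KO differed around the start of BC048671. MTC-int_dup1202, the repeat in which that gene starts, held 35, 11, 5, 9, 12 and 6 counts in NPC KO and 2, 2 and 1 in Emx KO. Per kilobase this is 1.56 CPM in NPC KO and 0.203 in Emx KO, whereas Lx7_dup13542, upstream of it, stood at 2.02 and 2.68. Because MTC-int_dup1202 shares 89 bases with BC048671, its counts can be reads of that gene. Between MTC-int_dup1202 and Lx7_dup13542, L1_Mur3_dup9566 held 14 counts in NPC KO and 3 in Emx KO (0.878 and 0.457 CPM per kb). These few counts, at 0.134 ± 0.0938 and 0.0700 ± 0.0807 CPM (SD), do not show where the profiles part. Downstream of BC048671, the LINE copy L1Md_T_dup8406 held 9, 13, 4, 4, 5 and 0 counts in NPC KO and 0, 1 and 0 in Emx KO. The whole stretch from the end of BC048671 to the end of the window took 2.48 to 8.42% of the window's TE counts in NPC KO (68 counts) and 0 to 0.331% in Emx KO (1 count). The last copy there with at least 10 NPC KO counts, MLT1H-int_dup133, begins 2425 bases past the gene's end. The map of copies around the LTR shows both profiles.

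**Figure D3:**
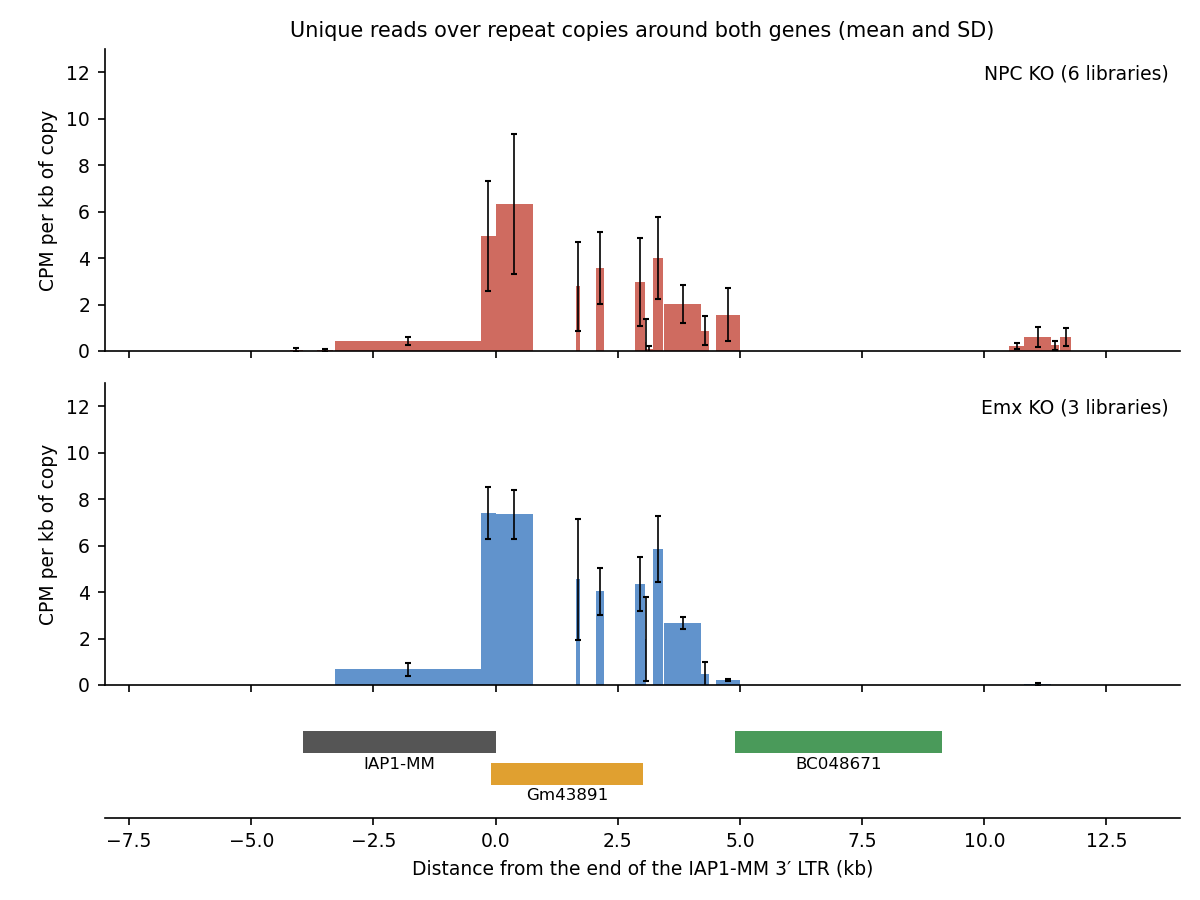
Mean unique-read level of each repeat copy in CPM per kilobase of copy (y axis, with SD) against distance from the end of the IAP1-MM 3′ LTR in kb (x axis), in NPC KO (6 libraries, top) and Emx KO (3 libraries, middle), with the IAP and both genes drawn to scale below; gaps hold no repeat copy. Both profiles rise at the 3′ LTR, to 4.94 and 7.41 CPM per kb, and only the NPC profile has counts of more than a single read beyond BC048671.

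In the Emx contrast 6 copies of the window passed the filter and all 6 were called higher, against 2.48% of all copies tested (347 of 13997; 2.73% in either direction). They are the internal part and the 3′ LTR of the IAP (means 2.01 ± 0.864 and 2.16 ± 0.322 CPM, n = 3; at least 14.9-fold and 16.0-fold above the control floor; adjusted p = 5.13e-09 and 3.05e-10, edgeR), L1_Mur2_dup7199, Lx7_dup13541, L1MC4_dup1957 and Lx7_dup13542. Since their controls were at 0 or 1, a copy could pass only through its counts in KO, and the 6 neighbours may share transcripts, so the count is no measure of 6 separate events. In NPCs, 8 copies passed the filter and 7 met the thresholds, beside 0.55% of all copies higher. This contrast chose the genes and nothing is read from that count. In the sorted adult nuclei no copy of the window passed the filter, where 0.163% (Cas9-GFP), 0.012% (Stop-Cas9-GFP) and 0% (Trim28-flox, in the libraries labelled KO) of copies were called higher and 0.167%, 0.0129% and 0.00644% in either direction. The Trim28-flox share of 0% is 0 of 46564 copies by edgeR, of which 708 had an unadjusted p under 0.05.

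Copies on the - strand carried 1260 of the window's counts and those on the + strand, the strand of both genes, 806. The library kit marks strand, so it was examined over the whole table whether the deposited counts keep it. Over copies that lie within an exon of a single gene with at least 100 counts, those on the opposite strand held 0.715 (NPC KO) and 0.617 (Emx KO) of the counts per kb of those on the gene's strand. The TE counts therefore hardly separate strands, and transcripts of the locus cannot be assigned to a strand from them. The headers of the gene and TE tables show no option for counting read pairs as fragments, so a count may be a single read of a pair, and counts, floors and folds may rest on fewer independent fragments than counts.

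Among all IAP1-MM copies, the 3′ LTR of this locus was one of the most read. It took 11.4% of the unique reads on IAP1-MM_LTR copies in NPC KO (140 of 1227, 9.16 to 16.1% by library), where it ranked 4 of the 62 copies with counts. The NPC contrast chose Gm43891, whose first 95 bases lie in this LTR, so the NPC rank is a description. In Emx KO it took 24.2% (106 of 438; 21.9 to 25.7% by animal) and ranked 1 of 38. Its internal part ranked 14 of 147 copies in NPC KO and 8 of 89 in Emx KO, and the locus took 1.52% and 4.06% of the reads on IAP1-MM_I-int copies. The controls had none of their 1498 (lacZ) and 1098 (Emx) internal reads at this locus.

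No gene around the locus was called in any experiment. The nearest upstream gene, Vmn1r54, a vomeronasal receptor gene that ends 25009 bases before Gm43891, had 0 counts in every library. The nearest downstream gene, Chst13, a chondroitin sulfate sulfotransferase gene on the - strand whose 3′ end lies 2900 bases past BC048671, held 15 counts in NPC KO (0 to 9 a library), 0 in lacZ, and 1 each in Emx KO and control, too few to be tested. Of the 42 other genes within chr6:89750000-90850000, 9 to 11 could be tested in each experiment by edgeR. At an unadjusted p under 0.05 there was 1 in Cas9-GFP nuclei and 0 in each of the others. In NPCs the 10 tested neighbours ran from -0.74 (Klf15, a transcription factor) to 0.12 (Iqsec1) in log2 fold change with a median of -0.11 (0.01 over all genes), and in Emx cortex from -0.49 (Cfap100) to 0.51 (Slc41a3) with a median of -0.04 (0.01 over all genes).

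Of 25 genes of the silencing machinery listed for comparison (among them Setdb1, a histone H3K9 methyltransferase, the HUSH component Mphosph8, and the DNA methyltransferase Dnmt1), all were tested in NPCs and 23 in Emx cortex. Trim28 was the only one called in either, lower in both, beside 0.194% (NPC) and 1.33% (Emx) of all genes called in either direction. The others ran from -0.31 to 1.02 in log2 fold change in NPCs and from -0.19 to 0.24 in Emx cortex. The highest in NPCs was Zfp809, which fell just short of a call (unadjusted p = 0.000117, adjusted p = 0.0555, edgeR). The list's median was -0.05 in NPCs and 0.05 in Emx cortex, beside 0.01 over all genes in each.

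The genes most like each member over the 32 libraries were found by Pearson's r of log2 CPM (prior count 2) among 20975 genes with at least 100 counts in all. These r describe mostly which libraries are at 0 and carry no test. For Gm43891 they were Fbxw16 (r = 0.97), Gm47015 (0.96), Gm42494 (0.95), Gm28321 (0.94) and Fbxw19 (0.93), where the Fbxw genes encode F-box proteins. For BC048671 they were Vmn1r213 (0.97), Vmn1r211, Vmn1r210 and Vmn1r212 (each 0.97), all vomeronasal receptor genes of chromosome 13, and the olfactory receptor gene Olfr1355 (0.96). The members correlated less with each other (r = 0.90). Of the 101726 TE copies with as many counts, those most like Gm43891 were L1_Mur2_dup7199 (r = 1.00), IAP1-MM_I-int_dup144 (1.00), Lx7_dup13542 (1.00) and IAP1-MM_LTR_dup137 (0.99), all of the locus, and IAP1-MM_I-int_dup253 on chromosome 9 (0.99). L1_Mur2_dup7199 and IAP1-MM_LTR_dup137 overlap Gm43891, so the same reads can stand in both. Those most like BC048671 lay elsewhere: IAP1-MM_LTR_dup181 (0.99), RLTR10-int_dup930 (0.98) and IAP1-MM_I-int_dup204 (0.98) near each other on chromosome 7, Lx_dup6750 (0.98) on chromosome 5 and L1MB5_dup606 (0.98) on chromosome 3. The only copy that overlaps BC048671, MTC-int_dup1202, had 83 counts. It was below the minimum of 100 and could not be compared, so the lists of the members are not alike in kind.

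In the single-nuclei libraries only BC048671 could be followed, since Gm43891 is not among the genes their tables list. The libraries held 29127314 to 33524892 UMIs (unique molecular identifiers, each standing for a captured RNA) in 3130 to 3871 nuclei, and shared 36 barcodes. Trim28 stood at 8.00 (KO 60), 7.70 (KO 73), 9.38 (control 64) and 8.48 (control 65) CPM, here UMIs per-million UMIs of the library or class, and did not pass (log2 fold change -0.21, adjusted p = 0.453, edgeR). BC048671 had 21 UMIs in KO 60 (in 20 of 3799 nuclei) and 17 in KO 73 (in 17 of 3871), and 0 in control 64 (of 3496 nuclei) and control 65 (of 3130). This is 0.634 and 0.507 CPM in KO, against a limit of 0.101 and 0.103 that a count of 0 allows in the controls. On UMIs summed per library it was called higher (adjusted p = 0.0227, edgeR's quasi-likelihood test), as were 2.43% of the 17446 genes tested (4.26% in either direction). DESeq2 gave it no adjusted p. With both controls at 0, BC048671 entered this test only through the KO libraries, and these are animals of the bulk contrast.

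The nuclei with BC048671 were almost all in glia-like clusters. After clustering without this gene, classes were named from marker lists, and glia are taken as the astrocyte-like, oligodendrocyte-like and oligodendrocyte progenitor-like clusters, a grouping made after the values were seen. In KO, 36 of 38 UMIs lay in these clusters (94.7%; exact 95% binomial interval 82.3 to 99.4%), which held 1487 of 7670 nuclei. Their level was 8.48 CPM in KO 60 (95% Poisson interval 5.18 to 13.1) and 6.42 in KO 73 (3.67 to 10.4). In all other nuclei it was 0.0325 (0.000823 to 0.181) and 0.0322 (0.000816 to 0.180), from 1 UMI in each library. The intervals did not overlap in either animal. Since the grouping followed the values, and the other nuclei pool several classes, this separation is a description only. With 2 KO animals there is no test between classes.

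By class, the astrocyte-like cluster, with the glutamate transporters Slc1a2 and Slc1a3 among its leading genes, held 11 UMIs in KO 60 (8.15 CPM, interval 4.07 to 14.6) and 8 in KO 73 (5.64, 2.44 to 11.1). The oligodendrocyte-like clusters, with myelin genes such as Mbp and Mag among their leading genes, held 9 (15.4 CPM, interval 7.03 to 29.2) and 7 (interval 4.82 to 24.7). The intervals of these classes overlap in both animals. The oligodendrocyte progenitor-like cluster held 0 and 1 UMI, at limits too wide to set it apart from the other glia. All these classes were at 0 in both controls.

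The excitatory-like clusters, the largest class, held 1 UMI in 4201 KO nuclei, so that 0.0238% of them had a UMI, against 2.35% of the glia-like KO nuclei. Their depth went the other way, with a median of 10458 UMIs per nucleus against 2877 in glia-like nuclei. The level was 0.0214 CPM (0.000541 to 0.119), from a single UMI, which free RNA in the droplets can also give. The inhibitory-like clusters held 0 of 939 KO nuclei, which allows a share of up to 0.319%, the neuron-like clusters 0 of 343 (up to 0.875%) and the microglia-like cluster 0 of 461 (up to 0.651%). These limits are on nuclei with a UMI, not on nuclei that express the gene. The microglia-like cluster had few UMIs per nucleus. A count of 0 there allows up to 7.96 CPM in KO 60 and 6.67 in KO 73. These limits lie within the astrocyte-like intervals of those animals. Over both animals the floor is 3.63 CPM, but the upper end of the Poisson interval is 4.46. That interval overlaps the astrocyte-like interval over both (4.13 to 10.7). The microglia-like cluster is thus not set apart from the astrocyte-like cluster. The remaining UMI lay in an unnamed cluster, in which 38 of 57 nuclei were predicted to be doublets. The plot by class shows the KO and control libraries side by side.

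**Figure D4:**
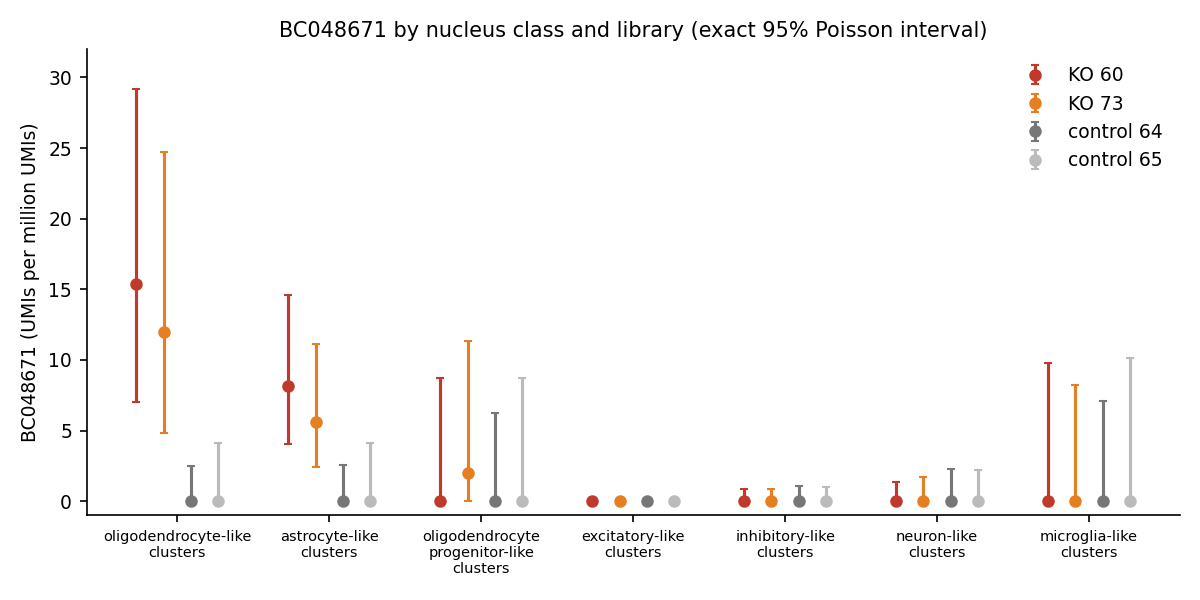
BC048671 in UMIs per-million UMIs (CPM, y axis) by nucleus class (x axis) in KO 60, KO 73, control 64 and control 65; points are libraries and bars are exact 95% Poisson intervals, which cover counting error only. Both KO libraries stand above 0 in the oligodendrocyte-like clusters (9 and 7 UMIs) and the astrocyte-like cluster (11 and 8 UMIs), and no control library has a UMI in any class.

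Most KO oligodendrocyte-like nuclei fell into a cluster with almost no control nuclei, and the rest lay with the control nuclei. Cluster 5, led by Fbxw19 and Fbxw16 together with myelin genes, held 204 nuclei of KO 60, 166 of KO 73 and 2 of the controls, and cluster 6 held 78, 88, and 571 and 350 of controls 64 and 65. BC048671 had 9 UMIs in KO 60 and 3 in KO 73 in cluster 5, and 0 and 4 in cluster 6, so that in KO 73 it was seen in both. The oligodendrocyte-like clusters held 282 of 3799 and 254 of 3871 nuclei in KO 60 and 73, and 571 of 3496 and 352 of 3130 in control 64 and 65. In bulk Emx cortex 4 oligodendrocyte genes (Mbp, Mog, Mag, Mobp) summed to 852 to 1039 CPM in KO and 1048 to 1199 CPM in control, lower in every KO library. The 6 astrocyte markers summed to 5073 to 5682 CPM in KO and 5073 to 5819 CPM in control, which overlap. In the sorted adult nuclei the astrocyte markers summed to 36.4 to 308 CPM and the 4 oligodendrocyte genes to 61.0 to 156 CPM. The part of cell type makeup in the levels of both genes was not tested, and in bulk samples fewer cells of a type and less RNA per cell cannot be told apart.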

How the data were processed

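Poly-A RNA was sequenced as stranded paired-end libraries. The authors aligned reads with STAR 2.6.0 to GRCm38.p6 and counted them with featureCounts (Subread 1.6.3), and the deposited values are raw counts per GENCODE gene and, for reads with a single match, raw counts per TE copy. Further deposited counts came from TEtranscripts, which also places reads with several matches. Single-nuclei UMI counts were made by the authors with Cell Ranger 3.0. The repeat table held 6 columns that matched no sample and were not used, and H3K9me3 libraries were not analysed here.

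Each experiment was fitted on its own with edgeR 4.0.16 (R 4.3.3): filterByExpr, TMM scaling, the quasi-likelihood test and Benjamini-Hochberg adjustment over all genes or copies, with gene totals as library sizes for copies. Calls needed an adjusted p below 0.05 together with a log2 fold change beyond 0.5 either way. The bulk fits were tested on simulated data with known changes. CPM use TMM-scaled totals. A fold against controls at 0 was set against 3 counts per control library. Alternatives were DESeq2 1.42.0, its size factors in edgeR, no filter on low counts, TEtranscripts counts, each replicate left out, and the NPC number series as a block. Deviations of same-series NPC KO libraries from their guide means correlated between guides (r = 0.57, 0.60 and 0.75 over 14453 genes), so the series pair the libraries.

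Nuclei were clustered with scanpy 1.11.5 (2000 variable genes, 30 components, 15 neighbours, resolution 0.5), leaving BC048671 out, with no filter on nuclei. Of 20 clusters, 17 were named from fixed markers. A further oligodendrocyte marker is not reported here, so 4 genes of that list were summed in bulk. Scrublet marked 0.421 to 1.92% of nuclei as doublets, which were kept.

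The genes named are both members, the 10 window copies with the most counts, the nearest neighbours and the 5 genes and copies most like each member. The members and lists were chosen with earlier results of these data known.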

Additional observations from a re-analysis of the deposited data

Results flagged for a closer look

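Of 18 groups of 4 to 10 libraries examined, 3 held a library far from the others, all in NPC KO and all the same library, g3_845 (exon 3 guide). Chance marks about 1 in 20 such groups, and these 3 values share reads and are not separate. BC048671 stood at 7.79 CPM there and at 3.14 CPM in the next library, a gap of 0.71 of the group's range. Its level per kilobase relative to Gm43891 was 1.48, against 0.912 in the next library (gap 0.626 of the range, just past the limit of Dixon's test). MTC-int_dup1202, the repeat in which BC048671 starts, stood at 1.87 CPM, against 0.689 CPM in the next library (gap 0.765).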

How the results depend on the processing

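Of 170 alternative values for 23 results, 81 belong to the sorted adult nuclei, where both genes were at 0 and no window copy could be called, so nothing could change. Of the other 89, 86 kept their direction and were counted as the same. For tested values this meant the same side of the threshold, and for untested levels a shift within the KO spread. For window copies it meant a similar number called, not an equal one. BC048671 in nuclei is among the 86 although DESeq2 gave it no adjusted p. NPC values that carry no test make up 45 of the 89. Without the filter on low counts, BC048671 entered the Emx test at 0.313 CPM in KO and passed (adjusted p = 0.00132, against 0.0547 by DESeq2). The number of window copies called in NPC was 7, and 2 to 7 with 1 library left out: 3 without lacZ library ctrl_842 and 2 without lacZ library ctrl_867, which leave a single control assumed to vary like the KO libraries. In Emx it was 6, and 6 to 8 under all alternatives. Gm43891 in Emx passed in 11 of 11 fits (adjusted p from 7.86e-112 to 5.38e-05). Over all genes, the number called was 32 in NPC (2 to 146), 0 in Cas9-GFP (0 to 131), 0 in Stop-Cas9-GFP (0 to 18), 7 in Trim28-flox (7 to 37) and 216 in Emx (104 to 546). With the number series as a replicate block, NPC had 136 genes called, and the guide differences of both members did not pass with it either (adjusted p = 0.823 for each). The NPC values of the members against lacZ carry no test with or without the block. The causes were not tested. Leaving out the only control of Cas9-GFP or Stop-Cas9-GFP could not be fitted. In nuclei, 37 of 38 UMIs lay in glia-like clusters at a clustering resolution of 1 and 35 of 37 without predicted doublets, both chosen after seeing the data. Depth limits BC048671 in each single library of sorted adult nuclei, where a level like that of Emx KO would give only a few counts. The libraries of a group together set a lower limit than each alone. Trim28-flox libraries held 0 counts of it among 77202400 gene counts under the KO label and 81313100 under the control label.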

Other observations

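The LINE copy L1Md_T_dup8405, which lies before the IAP, held 1 count in a Trim28-flox library labelled KO and 3 in one labelled control, and none in the other bulk libraries.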
